A study of Homo sapiens with 16 samples.

Results

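DNA replication and G1/S genes were followed in a bronchial epithelial cell line and in a clone of it whose MET receptor lacks exon 14. The group holds 39 genes of the 42665 gene names on the array, listed by symbol, and every probe carrying 1 of these symbols was taken. It was listed by function, with earlier results of these data known. The 39 genes had 49 probes, of which 47 were tested, and all 47 were well above background on all 16 arrays. Unless stated otherwise a gene is represented by its brightest probe, and a level is the log2 intensity of that probe relative to the 75th percentile of its array.

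The arrays measured 16HBE cells, a human bronchial epithelial line immortalised with SV40 large T antigen, in 4 groups of 4 arrays. 16HBE-WT cells carry unedited MET, and 16HBE-ex14 cells are 1 clone, clone F, in which CRISPR/Cas9 editing of a MET splice site leads to skipping of exon 14. Both were starved of serum for 2 h and then left without hepatocyte growth factor (HGF), the ligand of MET, or given it at 20 ng/mL for 24 h, as 16HBE-WT+HGF and 16HBE-ex14+HGF. The labels of the 16HBE-WT+HGF arrays write YY in place of WT in their titles, and these arrays were grouped by their genotype field. With 1 edited clone, the effect of the edit and other differences between the clone and the parental line cannot be told apart. The epithelial markers KRT8, KRT18, KRT19, EPCAM and CDH1 were well above background on all 16 arrays, while COL1A2, COL3A1, DCN and PECAM1, markers of fibroblasts and endothelium, were so on 0 of 16. Among further markers of fibroblasts, leukocytes and endothelium, COL1A1, PTPRC, CD3E, CD14, CDH5 and VWF were above background on all 16 arrays and LUM on 8. The mean level of LUM was lower in the clone, where it was -6.60 without HGF and -7.00 with it, than in the parental line, where it was -2.94 and -3.52, and its part in the results was not tested.

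Before S phase, the origin recognition complex, to which ORC1 and ORC6 belong, recruits CDC6 and CDT1, which load the MCM2 to MCM7 helicase onto DNA, while geminin, encoded by GMNN, holds CDT1 in check. CDC45 and the GINS complex, with MCM10, then turn the loaded ring into an active helicase, and the sliding clamp PCNA, its RFC loader and the replicative polymerases copy the strands. Ribonucleotide reductase, thymidylate synthase and thymidine kinase supply the deoxynucleotides. E2F factors, held back by RB and released by cyclin E and its kinase, switch on most of these genes at the G1/S transition, and in cells with SV40 large T antigen RB is bound by the viral protein. HGF is known to act on epithelial cells as a mitogen and as a scatter factor.

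The promoters of these genes were read from RefSeq on GRCh38.p14, as the 250 bases before and the 50 bases after the start of each gene, for the 36 members in that table. An E2F motif, searched as TTTCCCGC, TTTGGCGC, TTTCGCGC or TTTGCCGC on both strands, lay in 18 of the 36 (50%), against 3.31% of all 35116 promoters of that length. A CCAAT box, searched on both strands, lay in 19 of the 36 (52.8%), against 34.6% of all. Both motifs together were found in 10 of the 36. Among 50 promoters of other replication and G1/S genes, 15 (30%) held an E2F motif and 26 (52%) a CCAAT box. The 150 bases before the start are printed below for 7 members on which the results turn, with the searched E2F motifs and CCAAT boxes in capitals. Members with a searched E2F motif (CDT1, GINS2, MCM7), with only CCAAT boxes matched in this window (CDC6, CDC45, RRM2) and with neither matched (CCNE1) can so be set side by side.
CDT1 (chr16:88803639-88803788, plus strand): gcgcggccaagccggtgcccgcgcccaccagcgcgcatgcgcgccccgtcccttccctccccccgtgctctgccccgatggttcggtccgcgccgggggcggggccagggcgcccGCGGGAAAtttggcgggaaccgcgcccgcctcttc
GINS2 (chr16:85688955-85689104, minus strand): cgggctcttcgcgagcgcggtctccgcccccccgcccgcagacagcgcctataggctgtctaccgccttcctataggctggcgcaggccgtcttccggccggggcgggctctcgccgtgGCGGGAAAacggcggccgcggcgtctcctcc
MCM7 (chr7:100101398-100101547, minus strand): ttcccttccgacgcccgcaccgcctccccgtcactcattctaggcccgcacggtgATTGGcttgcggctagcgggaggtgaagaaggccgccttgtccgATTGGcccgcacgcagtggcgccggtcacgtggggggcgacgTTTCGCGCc
CDC6 (chr17:40287729-40287878, plus strand): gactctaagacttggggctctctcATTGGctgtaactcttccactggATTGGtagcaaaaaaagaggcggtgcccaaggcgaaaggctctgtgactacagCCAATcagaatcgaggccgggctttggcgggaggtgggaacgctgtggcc
CDC45 (chr22:19479770-19479919, plus strand): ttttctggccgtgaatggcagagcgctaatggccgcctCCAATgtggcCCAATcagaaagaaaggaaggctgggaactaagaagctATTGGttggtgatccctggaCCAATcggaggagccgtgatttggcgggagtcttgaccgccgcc
RRM2 (chr2:10122589-10122738, plus strand): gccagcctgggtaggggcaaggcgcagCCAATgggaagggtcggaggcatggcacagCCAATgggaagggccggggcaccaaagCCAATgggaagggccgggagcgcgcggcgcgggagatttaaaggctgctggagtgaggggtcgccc
CCNE1 (chr19:29811841-29811990, plus strand): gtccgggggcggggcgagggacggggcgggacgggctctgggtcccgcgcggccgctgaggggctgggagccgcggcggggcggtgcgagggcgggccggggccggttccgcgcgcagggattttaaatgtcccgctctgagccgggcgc
A match is a description of the letters and not of binding. A promoter without a match was not shown to lack an E2F site, since other forms of the motif were not searched. The letters tttggcggga, which stand unmarked in the CDT1, CDC6 and CDC45 windows, are not among the strings searched. In CDC6 an E2F motif lies just after the start, outside the printed window.

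The first question was whether 24 h of HGF raised replication genes in either line. In 16HBE-WT cells it did not do so detectably. No member passed an adjusted p below 0.05 (limma, Benjamini-Hochberg over all tested probes), nor did any of the 26368 genes tested (0% of them, and 0% with the added requirement of a fold change above 1.5). At an unadjusted p below 0.05 there were 2 members, CCNE1 at +0.26 and MCM10 at -0.22, which is 5.13% of the 39 against 4.71% of all genes. The log2 differences of the 39 ran from -0.22 to 0.26 with a median of -0.00245, against 0.0415 over all genes, and all 39 of the 95% intervals lay within a 1.5-fold change either way, as did 58.3% of those of all genes. A rise of 1.5-fold or more lay outside the interval of every member, the highest bound being 0.56 on the log2 scale. Shares of intervals over all genes, here and below, include probes above background on as few as 4 arrays. They were not matched to the members for brightness.

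In 16HBE-ex14 cells HGF raised 1 member, CCNE1, which encodes cyclin E1, the cyclin that with CDK2 drives entry into S phase. Its level was 3.72, 3.54, 4.0 and 3.70 on the 4 arrays without HGF and 4.24, 4.25, 4.48 and 4.38 on the 4 with HGF, so the groups did not overlap. The difference was 0.59 ± 0.11 (SE, n = 4 and 4), a 1.51-fold rise with an adjusted p of 0.00745 in limma, and its interval ran from 0.37 to 0.82. This was 1 of 39 members at an adjusted p below 0.05, where 3.06% of all genes were called, and 1 with a fold change above 1.5, where 2.11% were. The rise sat close to the fold limit, and without 16HBE-ex14 replicate 2 or 4, or 16HBE-ex14+HGF replicate 3 or 4, it fell below that limit with values from 0.53 to 0.58, while the adjusted p stayed below 0.05 without any single array. Its adjusted p was 0.106 when arrays were scaled to their median and 0.0747 when only the 8 arrays of this comparison were fitted.

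**Figure D1:**
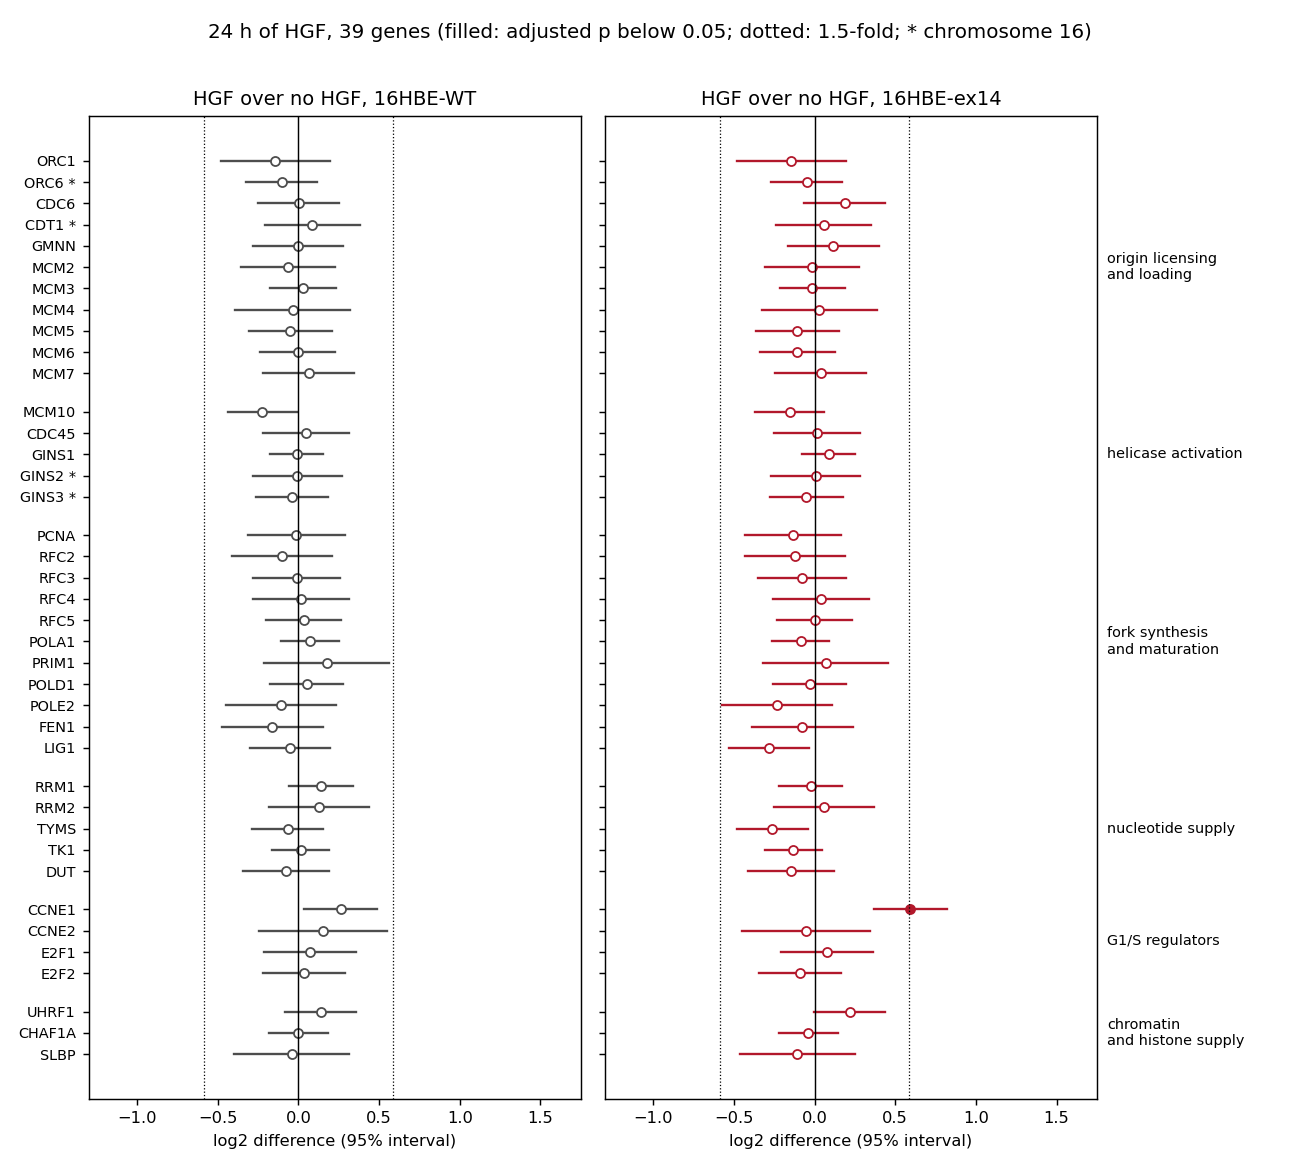
Log2 difference (x axis) of each of the 39 genes (y axis, grouped by role, asterisk for chromosome 16) between arrays with and without HGF in 16HBE-WT (left) and 16HBE-ex14 (right), with 95% intervals. Filled points have an adjusted p below 0.05 and dotted lines mark a 1.5-fold change; CCNE1 in 16HBE-ex14, at 0.59, is the filled point.

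The other 38 members in 16HBE-ex14 cells had intervals within a 1.5-fold change, against 51.2% of all genes, and their differences ran down to -0.28. The median of the 39 was -0.0383 against 0.059 over all genes, and 15 of the 39 lay above 0. Thymidylate synthase (TYMS) at -0.26 and DNA ligase I (LIG1), which joins Okazaki fragments, at -0.28 passed an unadjusted p of 0.05 only, with adjusted p values of 0.246 and 0.268. With CCNE1 they made 3 of 39 members at an unadjusted p below 0.05 (7.69%), against 14.3% of all genes. The 4 TYMS values with HGF all lay below the 4 without. On arrays not overlapping between groups the members numbered 1 higher and 1 lower, against 4.48% and 4.46% of all genes. PCNA, whose product clamps polymerases to DNA, differed by -0.13, and CDC6 by 0.19, neither past the test.

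The difference between the HGF responses of the lines was tested directly. No member passed an adjusted p below 0.05, as for all genes (0%, and 0% with the fold limit). At an unadjusted p below 0.05 there was 1 member (2.56%, against 4.6% of all genes). This was CCNE1, whose response was larger in 16HBE-ex14 cells by 0.33 (interval 0.01 to 0.65, adjusted p 1). In 16HBE-WT cells CCNE1 was 3.31, 3.39, 3.44 and 3.56 without HGF and 3.68, 3.54, 3.77 and 3.75 with it, overlapping by 1 array of each group, a difference of 0.26 with an interval from 0.04 to 0.49. For 35 of the 39 members (89.7%) the interval of the difference lay within 1.5-fold, against 38.2% of all genes.

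The second question was whether the edited clone differed from the parental line in these genes. Without HGF, 10 of the 39 were higher in 16HBE-ex14 cells (25.6%, where 9.91% of all genes were higher) and 2 were lower (5.13%, where 8.34% were lower) at an adjusted p below 0.05 in limma. With a fold change above 1.5 there were 4, namely CDT1, GINS2 and GINS3 higher and RRM2 lower, which is 10.3% of the members against 9.25% of all genes and so near the background. With HGF in both lines, on the other 8 arrays, 10 were higher (10.6% of all genes) and 1 was lower (9.97% of all genes), and the 10 higher ones were the same 10. Past the fold limit there were 6 with HGF (15.4% of the members against 10.7% of all genes), with CCNE1 and CDC6 added. Both comparisons draw on the same estimate of the spread per probe, though they share no array.

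The middle of the group shifted less than its leading genes. The median difference was 0.20 without HGF, with 32 of 39 members above 0, against -0.0145 over all genes. With HGF the median was 0.15, with 26 of 39 above 0, against 0.0024 over all genes. Without HGF, scaling to the array median moved the median of all genes to 0.123 and scaling to the spike-in controls moved it to 0.158, and the members moved with it, so that they stood 0.214 above all genes under these scalings and the 75th percentile alike. Their distance from all genes was 0.363 after normexp background correction and 0.135 after quantile normalization. With HGF it was 0.15 under the 3 scalings, 0.362 after normexp and 0.0846 after quantile normalization.

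**Figure D2:**
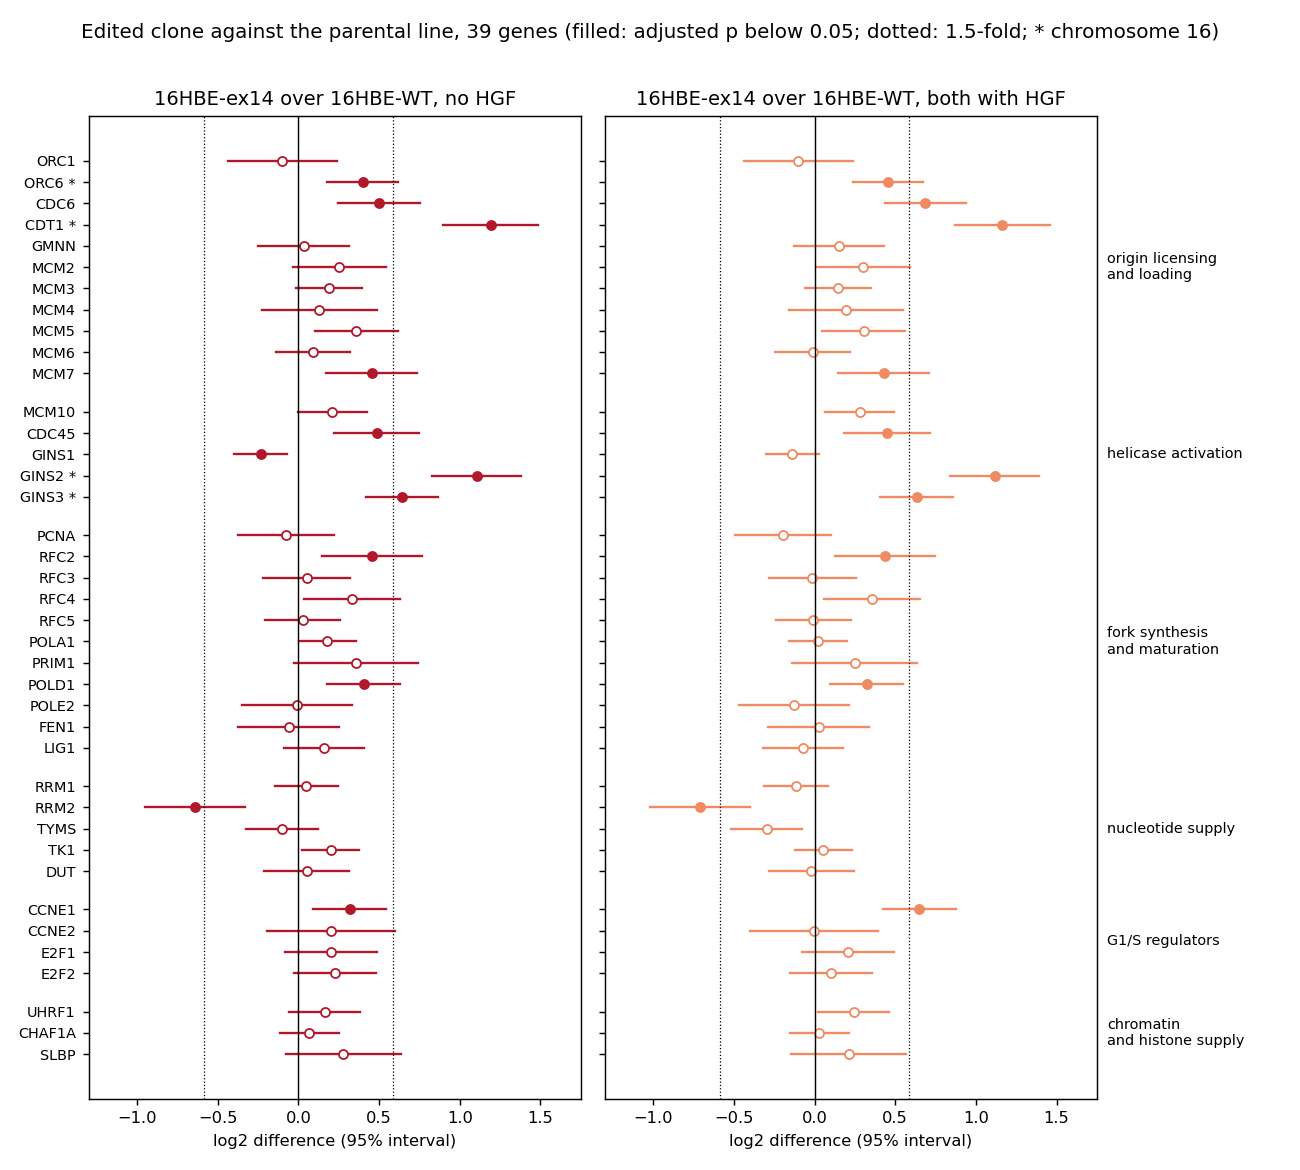
Log2 difference (x axis) of each of the 39 genes (y axis, grouped by role, asterisk for chromosome 16) between 16HBE-ex14 and 16HBE-WT cells without HGF (left) and with HGF (right), with 95% intervals. Filled points have an adjusted p below 0.05 and dotted lines mark a 1.5-fold change; CDT1 and GINS2 stand farthest to the right, above 1.1 on both sides, and RRM2 farthest to the left.

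Among the 11 genes of origin licensing and loading, 4 were higher in the clone (36.4%) and none lower, without and with HGF alike. Of all genes 9.91% were higher without HGF and 10.6% with it. CDT1 and ORC6, among the higher ones, lie on chromosome 16, which is taken up below. CDT1, the factor that brings the MCM ring to origins, stood out. Its levels were 4.14, 4.11, 3.98 and 4.55 in 16HBE-WT, 4.37, 4.42, 4.22 and 4.12 in 16HBE-WT+HGF, 5.30, 5.14, 5.59 and 5.52 in 16HBE-ex14 and 5.22, 5.5, 5.47 and 5.59 in 16HBE-ex14+HGF. The lowest array of the clone lay above the highest of the parental line, a difference of 1.19 ± 0.14 (SE, 2.28-fold, adjusted p 4.29e-05 in limma) without HGF and of 1.16 ± 0.14 (2.24-fold, adjusted p 4.35e-05) with it. Within slides 1 and 2 of the arrays the differences without HGF were between 1.09 and 1.29.

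CDC6, the ATPase that loads the helicase together with CDT1, gave weak signals of -1.08, -1.26, -1.08 and -0.91 in 16HBE-WT and of -0.65, -0.57, -0.60 and -0.50 in 16HBE-ex14. With HGF they were -1.02, -1.14, -1.21 and -0.96 in 16HBE-WT and -0.33, -0.75, -0.32 and -0.18 in 16HBE-ex14. The lines did not overlap in either state, with differences of 0.50 ± 0.12 (adjusted p 0.00833 in limma) and 0.69 ± 0.12 (adjusted p 0.000858), which were 0.31 and 0.45 after normexp background correction. The 4 values of ORC6, a subunit of the origin recognition complex, were 1.57, 1.53, 1.59 and 1.85 in 16HBE-WT and 1.95, 1.94, 2.20 and 2.06 in 16HBE-ex14. With HGF they were 1.47, 1.42, 1.66 and 1.58 against 1.90, 1.85, 2.09 and 2.11. Within each state ORC6 was higher on every array of the clone, by 0.40 ± 0.10 (adjusted p 0.0138) and 0.46 ± 0.10 (adjusted p 0.0055).

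Of the helicase ring itself, MCM7 passed the test. Its levels were 6.95, 6.90, 6.96 and 7.38 in 16HBE-WT, 7.17, 7.12, 7.10 and 7.07 in 16HBE-WT+HGF, 7.31, 7.30, 7.73 and 7.67 in 16HBE-ex14 and 7.34, 7.51, 7.68 and 7.63 in 16HBE-ex14+HGF. The lines overlapped without HGF, through 16HBE-WT replicate 4, and did not overlap with it. The differences of 0.45 (adjusted p 0.0255 in limma) and 0.43 (adjusted p 0.0318) were not shared by the second, dimmer MCM7 probe, which gave 0.13 (adjusted p 0.66) and 0.23 (adjusted p 0.387), and leaving out any of 5 arrays (16HBE-WT replicate 1, 2 or 3, 16HBE-ex14 replicate 3 or 4) ended the call without HGF. The call with HGF was lost without any of 6 arrays (replicate 2, 3 or 4 of 16HBE-WT+HGF or of 16HBE-ex14+HGF), and processing alternatives ended it in 3 of 12 cases without HGF and in 2 of 12 with it. MCM5 came next at 0.36 and 0.30, with adjusted p values of 0.0507 and 0.0919 that miss the threshold. MCM2 (0.25 and 0.30), MCM3 (0.19 and 0.15) and MCM4 (0.13 and 0.20) were positive and not called, and MCM6 gave 0.09 and -0.01. GMNN at 0.03 and 0.15 and ORC1 at -0.10 and -0.10 were not called either.

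The 5 genes of helicase activation had the highest median difference of the roles, 0.48 without HGF and 0.45 with it. Without HGF 3 were higher and 1 lower, where 9.91% of all genes were higher and 8.34% lower. With it 3 were higher, where 10.6% of all genes were. GINS2 and GINS3 of this role lie on chromosome 16, which is taken up below. GINS2, a subunit of the GINS complex, was at 2.88, 2.73, 2.90 and 3.32 in 16HBE-WT, 2.89, 3.02, 2.95 and 2.95 in 16HBE-WT+HGF, 3.87, 3.93, 4.18 and 4.26 in 16HBE-ex14 and 3.91, 3.99, 4.23 and 4.14 in 16HBE-ex14+HGF. All 8 arrays of the clone lay above all 8 of the parental line, by 1.10 ± 0.13 (SE, 2.15-fold, adjusted p 5.02e-05 in limma) and 1.12 ± 0.13 (2.17-fold, adjusted p 3.74e-05), and HGF moved GINS2 by no more than 0.01 in either line.

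GINS3, another subunit, was at 3.85, 3.68, 3.72 and 3.92 in 16HBE-WT, 3.68, 3.85, 3.75 and 3.73 in 16HBE-WT+HGF, 4.29, 4.23, 4.61 and 4.60 in 16HBE-ex14 and 4.24, 4.39, 4.49 and 4.42 in 16HBE-ex14+HGF. The lines did not overlap, and the clone was higher by 0.64 ± 0.10 (adjusted p 0.000653 in limma) and 0.63 ± 0.10 (adjusted p 0.000628), values that fall under the fold limit, at 0.57 in both, after quantile normalization and, at 0.58 without HGF, without 16HBE-ex14 replicate 3. GINS1, also a subunit of the same complex, ran the other way at 4.71, 4.58, 4.60 and 4.75 in 16HBE-WT against 4.41, 4.34, 4.42 and 4.54 in 16HBE-ex14. With HGF it was at 4.72, 4.64, 4.62 and 4.63 against 4.43, 4.49, 4.53 and 4.62. The clone was lower by -0.23 ± 0.08 without HGF (adjusted p 0.0473), a call lost when any of 14 of the 16 arrays was left out and with 5 of 12 processing alternatives, and the value with HGF was -0.14 (adjusted p 0.247).

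CDC45, the partner of GINS in the active helicase, was at 5.07, 5.00, 5.01 and 5.38 in 16HBE-WT, 5.16, 5.13, 5.25 and 5.12 in 16HBE-WT+HGF, 5.47, 5.36, 5.84 and 5.73 in 16HBE-ex14 and 5.41, 5.56, 5.73 and 5.77 in 16HBE-ex14+HGF. Only 16HBE-WT replicate 4 reached into the range of the clone, and the differences were 0.48 ± 0.12 (adjusted p 0.0137 in limma) and 0.45 ± 0.12 (adjusted p 0.018). The call with HGF was lost without 16HBE-ex14+HGF replicate 3 (adjusted p 0.0544) or 4 (0.0571). MCM10, a scaffold of the activated fork, did not pass at 0.21 and 0.28 (adjusted p 0.175 and 0.0643), although its arrays did not overlap in either state. With HGF it passed an adjusted p below 0.05 with slide or replicate number as a block.

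Of the 11 genes of fork synthesis and maturation, 2 were higher (18.2%) and none lower, both with and without HGF. Of all genes 9.91% were higher without HGF and 10.6% with it. POLD1, the catalytic subunit of DNA polymerase delta, was at 4.52, 4.57, 4.21 and 4.55 in 16HBE-WT against 4.92, 4.84, 4.89 and 4.82 in 16HBE-ex14. With HGF it was at 4.71, 4.59, 4.37 and 4.37 against 4.85, 4.96, 4.81 and 4.72. The lines did not overlap, with differences of 0.41 (adjusted p 0.0146 in limma) and 0.32 (adjusted p 0.0415), of which the latter passed 0.05 no longer when any of 10 arrays was left out.

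RFC2, a subunit of the clamp loader, was at 3.02, 2.93, 2.92 and 3.40 in 16HBE-WT, 3.02, 3.11, 2.92 and 2.82 in 16HBE-WT+HGF, 3.31, 3.29, 3.80 and 3.69 in 16HBE-ex14 and 3.20, 3.35, 3.55 and 3.52 in 16HBE-ex14+HGF. Here 16HBE-WT replicate 4 again reached into the range of the clone. The clone was higher by 0.46 (adjusted p 0.0396 in limma) and 0.44 (adjusted p 0.0442), calls lost without any of 6 and 9 arrays respectively, and with HGF the difference was 0.21 within slide 1 and 0.67 within slide 2. The other loader subunits gave 0.33 and 0.36 (RFC4, adjusted p 0.119 and 0.0888), 0.05 and -0.01 (RFC3) and 0.03 and -0.01 (RFC5). PCNA, on which the loader acts, was at -0.08 and -0.20 and was not called (adjusted p 0.776 and 0.379). The primase subunit PRIM1 gave 0.36 and 0.25 and POLA1, of the polymerase that extends its primers, gave 0.18 and 0.02. POLE2 (-0.01 and -0.13), FEN1 (-0.06 and 0.03), which trims Okazaki fragments, and LIG1 (0.16 and -0.07) were not called.

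Of the 5 genes of nucleotide supply 0 were higher and 1 was lower (20%) in the clone, without and with HGF. Of all genes 8.34% were lower without HGF and 9.97% with it. RRM2, the subunit of ribonucleotide reductase whose level rises in S phase, was at 2.24, 1.78, 1.84 and 2.34 in 16HBE-WT, 2.21, 2.22, 2.21 and 2.06 in 16HBE-WT+HGF, 1.36, 1.24, 1.62 and 1.42 in 16HBE-ex14 and 1.25, 1.32, 1.78 and 1.52 in 16HBE-ex14+HGF. The highest array of the clone without HGF lay below the lowest of the parental line, and the same held with HGF. The clone was lower by -0.64 ± 0.14 (SE, 1.56-fold, adjusted p 0.00632 in limma) and -0.71 ± 0.14 (1.63-fold, adjusted p 0.00291). Without HGF the value fell below the fold limit without 16HBE-WT replicate 1 (-0.58) or 4 (-0.55) and with normexp (-0.53) or spike-in scaling (-0.47), and it missed an adjusted p of 0.05 when arrays were scaled to their median (0.0725). RRM1, the large subunit of the same enzyme, gave 0.05 and -0.11 and was not called. TYMS gave -0.10 and -0.30 (adjusted p 0.573 and 0.0569), and with HGF it passed with slide or replicate number as a block. The others were not called, with TK1, the thymidine kinase, at 0.20 and 0.06, and DUT, which clears dUTP, at 0.05 and -0.02.

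Among the 4 G1/S regulators, CCNE1 was the one called (25%), where 9.91% of all genes were higher without HGF and 10.6% with it. Without HGF the clone's values overlapped those of 16HBE-WT, and the difference of 0.32 ± 0.11 (adjusted p 0.0498 in limma) lost its call when any of 14 arrays was left out and with 3 of 12 processing alternatives. With HGF the 4 arrays of the clone all lay above those of 16HBE-WT+HGF, by 0.65 ± 0.11 (1.57-fold, adjusted p 0.000543). The other members of this role were not called, with 0.20 and 0.20 for E2F1, 0.23 and 0.10 for E2F2 and 0.20 and -0.00093 for CCNE2, whose second probe gave -0.15 and -0.24. Of the 3 genes of chromatin and histone supply none was called, with 0.16 and 0.24 for UHRF1, 0.28 and 0.21 for SLBP and 0.07 and 0.03 for CHAF1A, whose second probe gave -0.31 and -0.22. Over the 8 members with 2 tested probes, the probes gave the same sign in 6 and the same call in 7, in each of the 2 comparisons of the lines.

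Groups of arrays that did not overlap were found for 8 members higher and 2 lower in the clone without HGF, against 11.4% and 9.8% of all genes, and for 13 higher and 3 lower with HGF, against 12.5% and 11.6%.

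Position in the genome was then compared. The 4 members on chromosome 16, CDT1, GINS2, GINS3 and ORC6, were all higher in the clone, with a median difference of 0.87 both without and with HGF. The 35 elsewhere had a median of 0.18 with 6 higher and 2 lower without HGF. Of the genes on other chromosomes, 8.84% were higher and 8.62% lower. With HGF the 35 had a median of 0.10 with 6 higher and 1 lower, where 9.61% of those genes were higher and 10.3% lower. Past both limits the counts without the chromosome 16 genes were 1 of 35 and 3 of 35. Of all genes, those on chromosome 16 included, 9.25% and 10.7% passed both limits. These counts were looked at after the data had been seen. On the hg19 positions of the array, from the ORC6 probe to the end of chromosome 16, 32.9% of the 559 genes were higher in the clone without HGF and 2.5% were lower, with a median of 0.30. Before that probe 30.2% of 665 genes were higher, and on the other chromosomes 8.84% were. The 4 genes on chromosome 16 therefore lie on a chromosome where many genes were higher in this clone, and what the shift of the whole chromosome contributes to their values was not tested.

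The neighbours of each member, the tested genes within 2 Mb of its probe, give the local level. For CDT1 they had a median difference of 0.341 without HGF, with 33 of 101 genes higher, and 4 of the 101 lay above CDT1's own 1.19. GINS2 had 68 neighbours with a median of 0.169, and 2 lay above its 1.10. ORC6 and GINS3 stood closer to their surroundings, with neighbour medians of 0.377 and 0.339 against their own 0.40 and 0.64. CCNE1 went against its neighbours, whose median was -0.296, and RRM2 lay below its own, whose median was -0.211. For CDC6, CDC45, MCM7 and RFC2 the neighbour medians were between -0.0174 and 0.0532. Over the 39 members the difference of a gene and the median of its neighbours had a Pearson correlation of 0.563 and a Spearman correlation of 0.443 without HGF, and of 0.46 and 0.413 with it, given as a description since the points share the same arrays and some share neighbours.

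**Figure D3:**
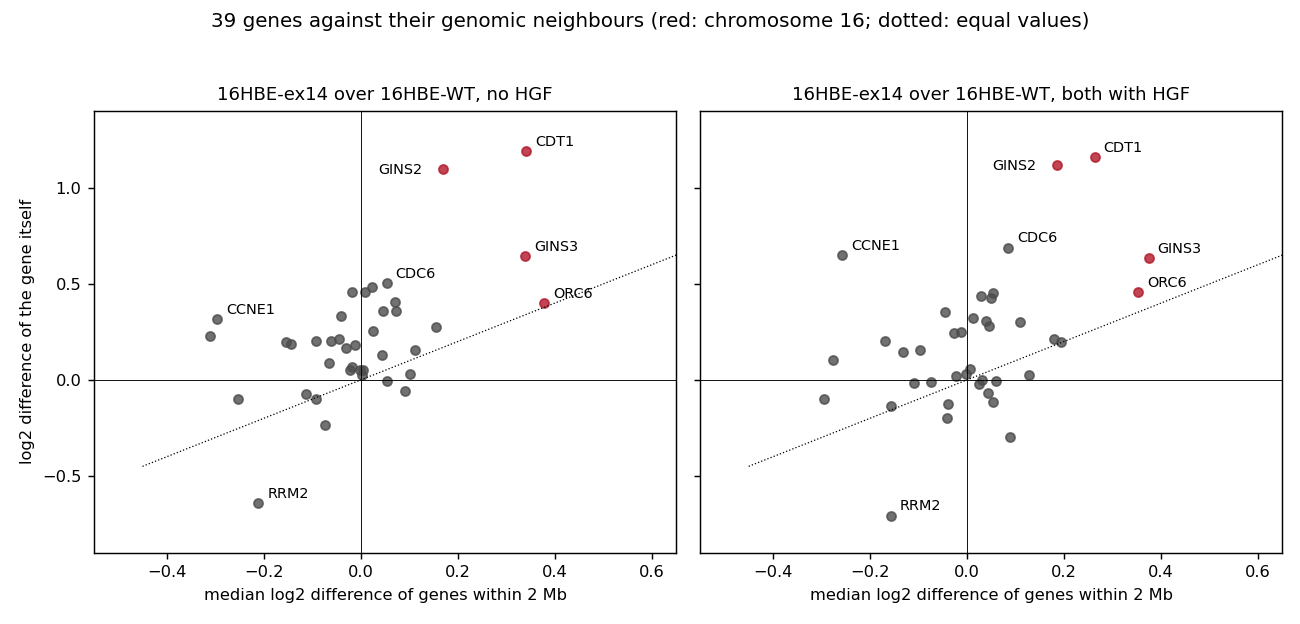
Log2 difference between the lines of each of the 39 genes (y axis) against the median log2 difference of the tested genes within 2 Mb (x axis), without HGF (left) and with HGF (right); red points lie on chromosome 16 and the dotted line marks equal values. The chromosome 16 genes sit at neighbour medians from 0.169 to 0.377 without HGF, with CDT1 and GINS2 far above the line and ORC6 on it.

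The members moved together from array to array. After removal of the group means, the median pairwise correlation over the 16 arrays was 0.601 over 741 pairs, with 95.3% of pairs positive, against 0.00928 over pairs of 2000 genes drawn from all tested. This is a description over arrays that share slides and hybridisation, and it means that 1 array can move many members at once. The mean deviation of the 39 genes was -0.10, -0.23, -0.22 and 0.13 on the 16HBE-WT arrays and -0.08, -0.09, -0.05 and -0.17 on the 16HBE-WT+HGF arrays. It was 0.03, -0.04, 0.25 and 0.23 on the 16HBE-ex14 arrays and -0.06, 0.05, 0.19 and 0.18 on the 16HBE-ex14+HGF arrays. Replicate 4 of 16HBE-WT was above the other arrays of its group, and leaving it out gave 12 members at an adjusted p below 0.05 without HGF, 3 past the fold limit as well, and a median difference of 0.24.

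Slide moved with these values. The arrays of slide 2 were higher than those of slide 1 by a median of 0.15 over the members and 0.04 over all genes, and 9 of 39 members (23.1%) differed between slides at an adjusted p below 0.05, against 22.1% of all genes. Each slide held 2 arrays of every group. With slide as a block 14 members passed an adjusted p below 0.05 in each comparison of the lines, with MCM5 and RFC4 added without HGF and MCM10, RFC4 and TYMS with it, and the median difference between the lines with HGF was 0.04 within slide 1 and 0.35 within slide 2.

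**Figure D4:**
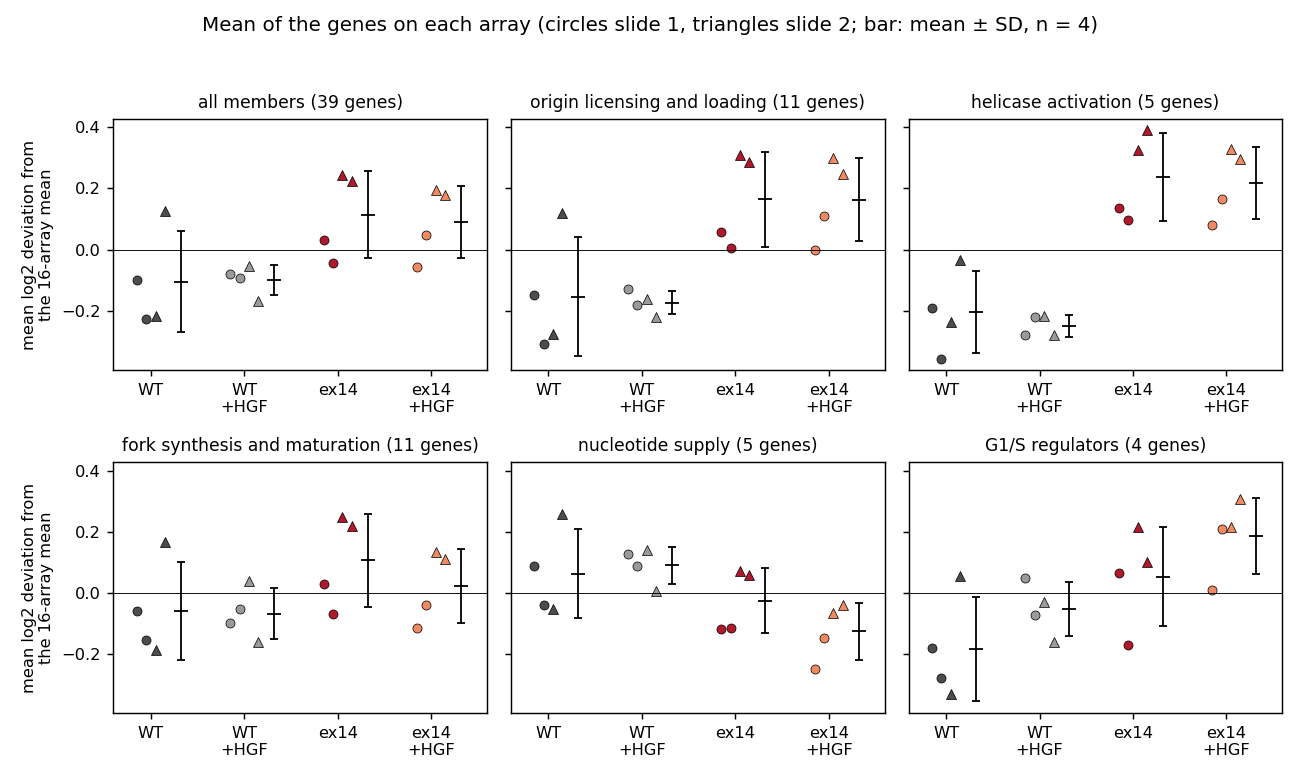
Mean log2 deviation from the 16-array mean (y axis) of all 39 genes and of 5 role groups on each array of the 4 groups (x axis); circles are slide 1, triangles slide 2, and bars give the mean ± SD (n = 4). The mean of all 39 genes overlaps between the lines without HGF, where 16HBE-WT replicate 4 is at 0.13. That of the 5 genes of helicase activation, among them GINS2 and GINS3 on chromosome 16, does not.

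The mean deviations of the roles differed in how well they separated the lines. Helicase activation ran from -0.36 to -0.03 in 16HBE-WT and from 0.10 to 0.39 in 16HBE-ex14, without overlap. GINS2 and GINS3 of this role lie on chromosome 16, and the role was not scored without them. The mean of the 35 members off chromosome 16 ran from -0.19 to 0.16 in 16HBE-WT and from -0.08 to 0.205 in 16HBE-ex14, with overlap. Fork synthesis ran from -0.19 to 0.17 and from -0.07 to 0.25, with overlap. With HGF, helicase activation ran from -0.28 to -0.22 in 16HBE-WT+HGF and from 0.08 to 0.33 in 16HBE-ex14+HGF, without overlap. Origin licensing, which holds CDT1 and ORC6 of chromosome 16, then ran from -0.22 to -0.13 and from -0.00087 to 0.30, without overlap. Nucleotide supply was lower in the clone, from 0.0046 to 0.14 and from -0.25 to -0.04, without overlap. Origin licensing and nucleotide supply overlapped without HGF, as fork synthesis did in either state. The 18 members with a searched E2F motif in the promoter had a median of 0.184 between the lines without HGF. The 18 without a match, which may hold other forms of the motif, had 0.205. Each set had 6 members at an adjusted p below 0.05.

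Of 64 other genes of the same pathways, all of them tested, 12 were higher and 4 lower in the clone without HGF, with a median of 0.11, where 9.91% of all genes were higher and 8.34% lower. With HGF 11 of the 64 were higher and 5 lower, with a median of 0.06, where 10.6% of all genes were higher and 9.97% lower. DTL, the adaptor that marks CDT1 for destruction in S phase, was higher by 0.80 ± 0.08 (adjusted p 1.9e-05 in limma) without HGF and by 0.73 with it. HELLS, a chromatin remodeller, was higher by 0.61 and 0.39. RBL2, a relative of RB whose probe is also on chromosome 16, was higher by 0.59 and 0.52. With HGF in 16HBE-ex14 cells 1 of the 64 changed at an adjusted p below 0.05, where 3.06% of all genes did. This was NASP, a histone chaperone, which fell by 0.72 (adjusted p 0.0332 in limma). None of the 64 changed in 16HBE-WT cells, where 0% of all genes did. NASP was also lower in the clone with HGF, by -0.87 (adjusted p 0.00218 in limma), the largest difference of the 64 in that comparison, and was at -0.41 without HGF (adjusted p 0.116).

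Genes that act before and after S phase were counted beside them. Of 10 mitotic genes 1 was higher and 3 were lower in the clone without HGF, where 9.91% of all genes were higher and 8.34% lower. With HGF 4 of the 10 were lower, where 9.97% of all genes were, namely AURKA, BUB1, CDC20 and TOP2A, at -0.79, -0.83, -0.66 and -0.76. TOP2A fell with HGF in 16HBE-ex14 cells by 0.58 (adjusted p 0.0384 in limma), the 1 of the 10 called, where 3.06% of all genes were. All 10 mitotic genes had values below 0 in that comparison, where 60.4% of all genes lay above 0. Their median was -0.195 against 0.059 over all genes. An unadjusted p below 0.05 was reached by 4 of the 10 and by 14.3% of all genes. Of 10 CDK inhibitors and D cyclins, 2 were higher and 3 lower without HGF, against the same 9.91% and 8.34%. CCND2 was higher by 1.65 and CDKN1B, which encodes the cyclin E/CDK2 inhibitor p27, by 0.72. CDKN1A, which encodes p21, was lower by -0.90 and CDKN2C by -0.89. The probes of CCND2 and CDKN1B lie on chromosome 12, and what their position contributes was not tested. With HGF 2 of the 10 were higher and 3 lower, where 10.6% of all genes were higher and 9.97% lower. Mean CDKN1A levels with HGF were 0.18 ± 0.39 (SD, n = 4) in 16HBE-WT+HGF and -0.25 ± 0.56 in 16HBE-ex14+HGF. Without HGF they were 0.27 ± 0.20 in 16HBE-WT and -0.63 ± 0.30 in 16HBE-ex14. Cells in each phase were not counted on these arrays, and whether more cells in S phase or more RNA per cell lies behind a level cannot be told apart.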

How the data were processed

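RNA of 16 samples was labelled with 1 dye and read on Agilent expression arrays. The deposited files hold, per the file headers and labels, the authors' Agilent Feature Extraction 10.7.3.1 output, and the intensity used is its processed signal, linear, background-subtracted and detrended, with no scaling between arrays. The series table repeats these values and was not used.

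Outlier-marked spots were left out, log2 values were scaled to the 75th percentile of each array (139.5 to 262.8 intensity units), and repeated spots were averaged. The test took in the 34600 of 58201 probes that cleared background on 4 or more arrays. The number of arrays and probes near background limit the precision. limma 3.58.1 in R 4.3.3 was fitted with 1 mean per group over 16 arrays, with Benjamini-Hochberg adjustment over all tested probes within each of 5 comparisons. A call needed an adjusted p below 0.05, with and without a fold change above 1.5, and the fit was tested on simulated data. Figures used matplotlib 3.10.9 in Python 3.11.15 with pandas 2.3.3. The methods place replicates a week apart, and the labels do not say which array is of which week, so p-values measure the spread between these arrays.

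Members with an adjusted p below 0.05 in any comparison, at most 12, were given by array, and up to 6 other pathway genes past both limits were named. Other genes were named to account for every member or to give the context lists. Members and lists were chosen with earlier results of these data known. All 39 symbols are in RefSeq, and 38 probe accessions are listed under their symbol there. Other settings tried were normexp (offset 50), quantile, median and spike-in scaling, other filters, outlier spots kept, slide or replicate number as a block, the mean of a gene's probes, fewer arrays, a trended robust prior, no fold limit, single slides, and each array left out. Counts without chromosome 16 were added after seeing the data. A marker gene examined is not reported here.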

Additional observations from a re-analysis of the deposited data

Results flagged for a closer look

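Levels of the 12 named genes and the mean deviations of 9 gene sets were examined in each group of 4 arrays by Dixon's gap over range. Of 84 such groups 3 held 1 value far from the others, where chance gives about 1 in 20. In 16HBE-WT+HGF, RRM2 was at 2.07 in replicate 4 and between 2.21 and 2.22 in the others. In 16HBE-WT, POLD1 was at 4.21 in replicate 3 and between 4.52 and 4.57 in the others. MCM7 was at 7.38 in 16HBE-WT replicate 4 and between 6.90 and 6.96 in the others.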

How the results depend on the processing

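No difference of a called member changed sign under any alternative. In the comparison of the lines without HGF, 12 members passed an adjusted p below 0.05 and 4 passed both limits. These became 19 and 7 with spike-in scaling, 7 past both limits with scaling to the array median, 6 at an adjusted p below 0.05 with the arrays of those groups alone (CDC6, CDT1, GINS2, GINS3, POLD1 and RRM2) and 12 with no fold limit. At an adjusted p below 0.05 there were 17 with normexp and 8 with no filter on dim probes. The median of 0.199 became 0.337 with scaling to the array median and 0.372 with spike-in scaling, which moved the median of all genes as well. With HGF, 11 members passed and 6 passed both limits. These became 11 with no fold limit, and the median of 0.153 became 0.346 within slide 2 and 0.0443 within slide 1, 0.255 with spike-in scaling, 0.248 with scaling to the array median and 0.0997 with quantile normalization. At an adjusted p below 0.05 there were 16 with normexp and 14 with spike-in scaling. There were 9 with no filter on dim probes and 8 with scaling to the array median. Without the chromosome 16 genes, 1 gene passed both limits without HGF, and with HGF 7 passed the adjusted p and 3 both limits. For HGF in 16HBE-ex14 cells the 1 call became 0 past both limits with normexp, scaling to the array median, spike-in scaling or the arrays of those groups alone, and 0 at an adjusted p below 0.05 with scaling to the array median or those arrays alone, while the median became -0.198 with scaling to the array median. The cause was not tested.

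Leaving out each array in turn gave 8 to 12 members at an adjusted p below 0.05 and 3 to 4 past both limits between the lines without HGF, and 7 to 12 and 6 to 6 with HGF, the 7 without 16HBE-ex14+HGF replicate 3. The medians ran from 0.145 to 0.244 and from 0.117 to 0.259. For HGF in 16HBE-ex14 cells 0 to 1 members passed both limits, for HGF in 16HBE-WT cells 0.

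Arrays with the same replicate number correlated at 0.0492 to 0.343 after removal of group means, 22 of 24 pairs above 0.1 and 2 not. The numbers follow the order of the samples and the rows of the slides, the labels tie them to no shared culture or day, and not every pair passed 0.1, so the unblocked fit was kept. With the replicate block, 12 members passed an adjusted p below 0.05 between the lines without HGF and 13 with HGF, where MCM10 and TYMS were added, and it ended no call.

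Precision is limited by 4 arrays a group. CDC6 differed between the lines by 0.50 without HGF and 0.69 with it, and by 0.31 and 0.45 after normexp.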
